A study of Homo sapiens with 12 samples.

Results

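The unstressed arm of a ribosome profiling series in lymphoblastoid cell lines (LCLs) is described here, that is, the ribosome footprints of 3 cultures that received nuclease-free water in place of an oxidative stressor. The libraries were chosen by their label as stress controls, which gave 6 of the 12 libraries of the series. No count of a stressed culture entered any value. The authors had kept only genes with at least 1 read in each of the 12 libraries, so that stressed libraries helped set which genes were analysed. LCLs are blood B cells made to grow without limit in culture by Epstein-Barr virus. The lines were GM18505, GM19193 and GM19204, all of wild-type genotype per the labels, with 1 control culture each, so that a difference between lines and a difference between cultures cannot be told apart. Each culture gave 2 libraries, of which T had ribosomal RNA fragments cut out with CRISPR/Cas9 and U was the control of that step. T and U are technical replicates, and their counts were summed per culture. Adjusted p-values therefore measure how far cultures differ beyond the spread between libraries of a culture, and not how far they differ beyond repeat cultures of a line.

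A ribosome that is translating an mRNA covers a short stretch of it, and this stretch survives digestion by ribonuclease. The number of such footprints on a gene rises with the abundance of its mRNA, with how often ribosomes start on it, with the length of its reading frame and with how slowly ribosomes move. The share of all footprints that a gene takes is thus close to the share of the cell's ribosomes at work on it, whereas footprints per unit of coding length are the nearer measure of how many protein copies are being started. Activated B cells are known for large amounts of HLA class II molecules, for a surface or secreted immunoglobulin with its folding machinery in the endoplasmic reticulum (ER), and for rapid growth with high glycolysis and ribosome production.

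The control libraries held 1979496 to 4112703 counts over 12357 genes, and the cultures 6283568 (GM18505), 5114266 (GM19193) and 6467049 (GM19204). Protein-coding genes took 86.3%, 85.2% and 86.7% of the counts in GM18505, GM19193 and GM19204, and immunoglobulin and T cell receptor segments a further 0.948%, 4.49% and 1.64%. These 10898 genes together are called coding genes below, and a share is the percentage of their counts. Counts were made per gene and not per reading frame, so that reads outside the reading frame also count. The label of the cells fitted the markers: all 11 of 11 B cell markers were measured and together took 1.53% to 2.32% of the coding counts. Most of this came from CD74 and HLA-DRA, which belong to HLA class II presentation. In GM18505, GM19193 and GM19204, CD74 took 1.36%, 0.879% and 1.25% and HLA-DRA 0.590%, 0.312% and 0.463%. Of 7 T cell markers only TRAC was measured, at 0.00686% to 0.00944%, of 6 myeloid markers only ITGAM, at 0.000710% to 0.00264%, and of 4 NK cell markers only NCAM1, at 0.000210% to 0.000910%. Of 5 epithelial markers EPCAM and CDH1 took 0.00270% to 0.00529%, and of 5 fibroblast markers COL1A1 and COL1A2 took 0.000290% to 0.000700%. The other markers of these lists and all 4 erythroid markers were not analysed here. The 5 plasma cell markers took 0.0921% in GM18505, 0.136% in GM19193 and 0.242% in GM19204. Most of this came from JCHAIN, with 0.0476%, 0.0866% and 0.169% in the same cultures. In a bulk lysate, more cells of a kind and more footprints per cell cannot be told apart.

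The footprints were spread over many genes with a steep head. In GM18505 the 12 most occupied genes took 10% of the coding counts, in GM19193 11 genes did, and in GM19204 16 genes did. The number of genes that took 50% was 644, 660 and 694 in GM18505, GM19193 and GM19204 (666 ± 25.5, mean ± SD, n = 3 cultures), and 90% was reached with 4596 ± 38.2 genes. The 100 most occupied genes of a culture took 22.4% to 23.6% of its counts, and the 1000 most occupied took 57.2% to 58.3%. Of the 100 most occupied genes, 74 were the same in all 3 cultures, and a pair of cultures shared 80 or 81, against 96 to 98 for the T and U libraries of a culture. Across the 10898 coding genes, which are not independent replicates and share their libraries' depth, Spearman's rank correlation of the shares was 0.945 to 0.954 between cultures and 0.984 to 0.989 between T and U.

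ACTB, which encodes beta-actin, was the most occupied gene in GM18505 and GM19204. It took 2.78%, 1.998% and 2.23% of the coding counts in GM18505, GM19193 and GM19204. In GM19193 the first place belonged to IGHM, the immunoglobulin mu heavy chain, at 2.73%. CD74, the invariant chain that escorts HLA class II molecules through the cell, had the second largest share by the mean of the cultures, with 1.36%, 0.879% and 1.25%, although in GM19193 IGKC (1.03%) also stood above it. Its T and U libraries differed by far less than its cultures, with 0.858% and 0.892% in GM19193 and 1.36% in either library of GM18505. GAPDH, a glycolytic enzyme, was near level at 0.817%, 0.757% and 0.787% (0.787% ± 0.0299, SD, n = 3). The rest of the 20 largest shares of protein-coding genes, a ranking that leaves out 3 immunoglobulin segments of like size, held another actin (ACTG1, 0.741% ± 0.187) and the actin-bundling plastin LCP1 (0.467% ± 0.0939). They held the HLA light chain B2M (0.576% ± 0.0693), the class II alpha chain HLA-DRA (0.455% ± 0.139) and the class I heavy chain HLA-B (0.254% ± 0.0490). Glycolysis supplied ENO1 (0.501% ± 0.0768), PKM (0.411% ± 0.0165) and LDHA (0.261% ± 0.0446), and translation itself supplied EEF2, the factor that moves the ribosome along by a codon (0.387% ± 0.0330). The chromatin proteins H1-4 (0.287% ± 0.0367), H1-5 (0.274% ± 0.0403), H1-2 (0.244% ± 0.0397) and H3C2 (0.237% ± 0.0329) stood beside the chaperone HSP90AB1 (0.240% ± 0.0194), the lysosomal membrane protein LAPTM5 (0.223% ± 0.0434), the nucleolar protein NCL (0.220% ± 0.0123) and the mRNA-binding protein HNRNPA2B1 (0.216% ± 0.0150). CD79A, the signalling chain of the B cell receptor, held 0.0867%, 0.0860% and 0.138%, so that GM19204 was high and the other cultures were level.

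**Figure D1:**
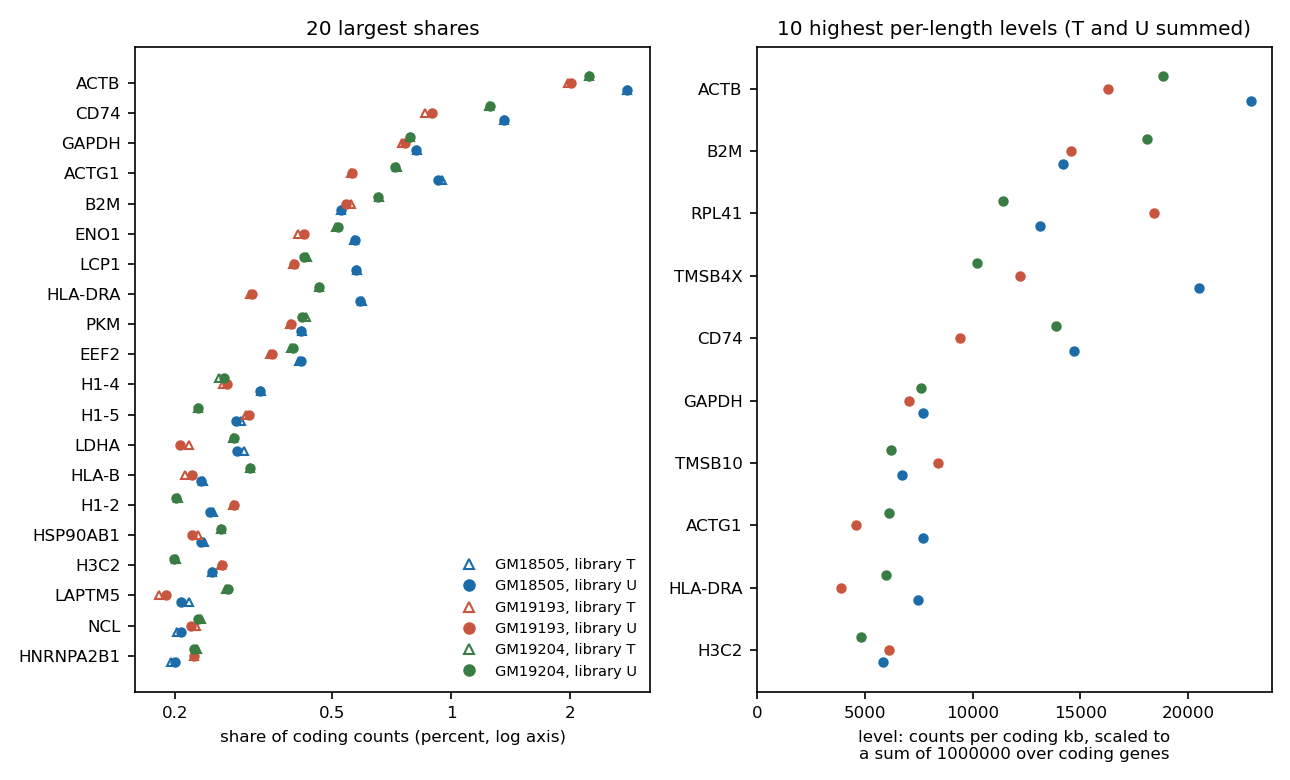
Left, share of the coding counts (percent, log axis) of the 20 most occupied protein-coding genes in each T (open triangle) and U (filled circle) library of the 3 control cultures. Right, footprints per coding kb, scaled to a sum of 1000000 over coding genes, for the 10 densest protein-coding genes with T and U summed. Immunoglobulin segments are not shown. By the mean of the cultures ACTB leads on both scales, although RPL41 (18426) lies above ACTB (16265) per kb in GM19193, and TMSB4X is far higher in GM18505 (20493) than in GM19193 (12191) and GM19204 (10185).

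Per unit of coding length the order changed, since short reading frames rose. On the scale of counts per coding kb, set to sum to 1000000 over the coding genes of a culture, the median coding gene had a level of 19.03 and the upper quartile was 54.0. ACTB had a level of 19341 ± 3361 (SD, n = 3) and B2M of 15606 ± 2166. RPL41, the smallest protein of the large ribosomal subunit, had 14316 ± 3659, TMSB4X, an actin monomer-binding thymosin, had 14290 ± 5465, and TMSB10, a second thymosin, had 7117 ± 1121. CD74 (12662 ± 2862), GAPDH (7458), ACTG1 (6137), HLA-DRA (5774) and H3C2 (5601) completed the 10 densest protein-coding genes, and 3 immunoglobulin or T cell receptor segments left out of this ranking were denser than H3C2. TMSB4X was high in GM18505 (20493) against 12191 in GM19193 and 10185 in GM19204, whereas RPL41 was high in GM19193 (18426) against 13107 in GM18505 and 11415 in GM19204. For both genes the T and U shares of a culture lay closer together than the shares of any pair of cultures.

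The coding sequences of the 3 short genes are given below because they hold few codons per protein and, in RPL41, an extreme content of lysine and arginine. They run 5′ to 3′ from the start to the stop codon, with lysine and arginine codons in capitals, and were taken from GENCODE release 44 transcripts. On GRCh38 the genes lie at chr12:56116590-56117967 (RPL41), chrX:12975110-12977227 (TMSB4X) and chr2:84905656-84906671 (TMSB10), all on the plus strand.
RPL41: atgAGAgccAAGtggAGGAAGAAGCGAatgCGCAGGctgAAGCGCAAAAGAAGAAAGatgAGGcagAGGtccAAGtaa
TMSB4X: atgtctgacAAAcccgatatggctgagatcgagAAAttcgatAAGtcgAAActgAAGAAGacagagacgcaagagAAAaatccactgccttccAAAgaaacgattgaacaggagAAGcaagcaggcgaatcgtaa
TMSB10: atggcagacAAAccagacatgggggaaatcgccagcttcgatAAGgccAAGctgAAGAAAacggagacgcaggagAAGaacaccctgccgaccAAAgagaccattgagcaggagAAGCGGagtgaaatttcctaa
RPL41 encodes 25 residues, of which 7 are lysine and 10 are arginine (68.0% together). The thymosins encode 44 residues each, with 9 lysine codons and no arginine codon in TMSB4X and with 8 and 1 in TMSB10 (20.5% together in each).

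The genes that differed between cultures were called with edgeR's quasi-likelihood F test over the 3 cultures, with the T or U preparation as a term, and p-values were adjusted over the whole table after Benjamini and Hochberg. At an adjusted p under 0.05 it called 4727 of 12357 genes, a background of 38.3% against which the count of any list has to be read, and 4233 of the 10898 coding genes (38.8%). Of these 4233, GM18505 had the highest level of 1447, GM19193 of 1409 and GM19204 of 1377, the split against which the counts per culture below have to be read. The number depended on the tool: the DESeq2 likelihood ratio test called 2130 genes and limma on log2 counts 898. The chance of a call rose with the depth of a gene. Among the 100 most occupied coding genes, with a median count of 7351 per culture, 92.0% were called, and among those ranked 5001 or lower, with a median count of 68.7, 28.0% were. The lists below hold mostly deeply counted genes, so that a share of called genes above the background says little by itself, and the values of the cultures are given beside the calls. The median coding gene differed by 0.48 on the log2 scale between its highest and its lowest culture, and 1578 called coding genes differed by over 2-fold.

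The 28 functional lists held 914 measured coding genes, which took 43.2%, 41.5% and 42.0% of the coding counts in GM18505, GM19193 and GM19204 and 53.1% ± 2.05 (SD, n = 3) of the per-length levels. No gene was in more than 1 list. The coefficient of variation (CV) of a list's share over the cultures was under 5% for 11 of the 28 lists and 20% or more for 5. In 20 of 28 lists the libraries of the 3 cultures did not overlap. Sums over many deeply counted genes differ little between T and U. The same count was not made for other sets of genes, so that it cannot be read as a trait of these lists.

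**Figure D2:**
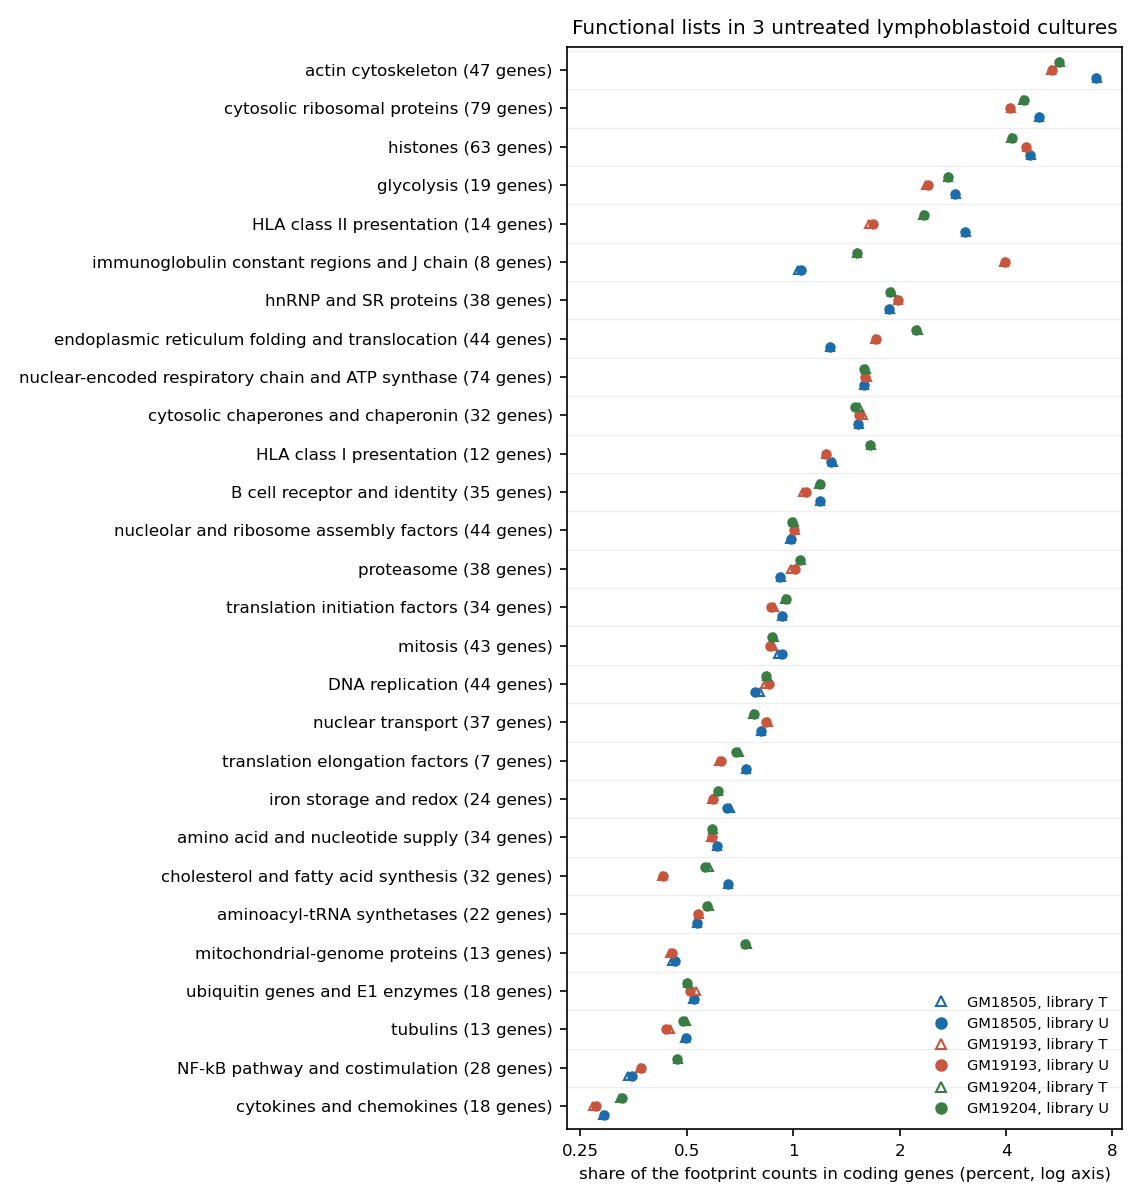
Share of the coding counts (percent, log axis) taken by each of 28 functional lists in each T (open triangle) and U (filled circle) library of the 3 control cultures, with the number of measured genes in parentheses. T and U nearly coincide. The nuclear-encoded respiratory chain stays at 1.58% to 1.61%, whereas immunoglobulin constant regions and J chain reach 3.96% in GM19193 against 1.05% in GM18505.

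The actin cytoskeleton was the largest list, with 7.21%, 5.38% and 5.65% of the coding counts in GM18505, GM19193 and GM19204. The cultures spanned 1.82 points with GM18505 apart from the others, and T and U of a culture never differed by more than 0.0325 points. Of its 47 measured genes 41 were called, and 25 of these were highest in GM18505. They included ACTB, ACTG1 and LCP1 (0.575%, 0.400% and 0.428%), the leukocyte coronin CORO1A (0.225%, 0.166% and 0.170%) and the non-muscle myosin heavy chain MYH9 (0.225%, 0.168% and 0.151%). TMSB10 went the other way and was highest in GM19193 (0.0925%, 0.117% and 0.0835%). The tubulins took far less, 0.477% ± 0.0313, of which TUBB alone gave 42.0%.

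The machinery of translation was itself a main product. Cytosolic ribosomal proteins took 4.96%, 4.12% and 4.49% of the coding counts in GM18505, GM19193 and GM19204, and 9.18% ± 0.537 of the per-length levels. Of 79 measured genes 68 were called, and 60 of these were highest in GM18505 (58 without immunoglobulin and receptor segments in the denominator), although the median gene of the list differed by only 0.36 on the log2 scale. RACK1, a protein of the small subunit, was the largest by the mean of the cultures (0.177%, 0.142% and 0.156%), although RPL41 (0.146%) stood above it in GM19193. Next by the mean were RPL8 (0.142%, 0.114% and 0.148%) and the stalk protein RPLP1 (0.166%, 0.113% and 0.0980%). The 47 measured genes of the large subunit had a median level of 802 and the 32 of the small subunit of 984, but RPL17 (25.8) of the large subunit lay far below. Most ribosomal proteins, though not those of the stalk, enter the ribosome in equal numbers. Many have near-identical copies in the genome, and only uniquely mapped reads were counted, so that the low values of single members are uncertain and the part of copies in them was not tested.

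Elongation factors took 0.684% ± 0.0575, of which EEF2 gave 56.6%, with EEF1A1, which brings aminoacyl-tRNA to the ribosome, at 0.157%, 0.124% and 0.142% and EIF5A at 0.0780%, 0.0734% and 0.0719%. EEF1A1 also has many processed copies. Initiation factors took 0.927%, 0.870% and 0.952%. Their largest member by the mean of the cultures, EIF3A, held 0.0733%, 0.0747% and 0.0726% and was not called (adjusted p = 0.75), and the scaffold EIF4G1 held 0.0626%, 0.0692% and 0.0709%, whereas the start codon factor EIF1 ran from 0.0528% in GM18505 to 0.0747% in GM19204, where it stood above EIF3A. Aminoacyl-tRNA synthetases took 0.549% ± 0.0217. Within them EPRS1 was not called (0.0462%, 0.0445% and 0.0489%), and WARS1, the tryptophanyl-tRNA synthetase, was, with 0.0311% in GM18505, 0.0439% in GM19193 and 0.0640% in GM19204. Nucleolar and ribosome assembly factors took 0.983%, 1.01% and 0.999%, and NPM1, a nucleolar chaperone, held 0.115%, 0.109% and 0.110%.

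Histones took 4.70%, 4.58% and 4.16% and, since they are short, 10.6% ± 0.446 of the per-length levels, the largest part of any list. With all exonic bases as length the histone part was 21.3% and that of ribosomal proteins 4.67%, so that these parts depend on the length used. GM19204 was lowest. The order of the other cultures depended on the denominator: without immunoglobulin and receptor segments the list took 4.75% in GM18505 and 4.82% in GM19193. Of 63 measured genes 46 were called, and 31 of these were highest in GM18505. Per length, histone H4 genes summed to 2.92% ± 0.0200, H3 to 2.46% ± 0.139, H2A to 1.89% ± 0.0934 and H2B to 1.88% ± 0.166 of all levels, and the linker histones, of which chromatin holds fewer per nucleosome, to 1.42% ± 0.146. H4 varied least over the cultures. In the core nucleosome these 4 kinds are present in equal numbers. Replication-dependent histone genes are near-identical to each other, 9 genes of the list were not analysed here, and the part of lost reads in these sums was not tested.

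Glycolysis took 2.88%, 2.40% and 2.74%, and 18 of its 19 genes were called, 10 of them highest in GM18505. ENO1 (0.570%, 0.419% and 0.515%), LDHA (0.292%, 0.210% and 0.281%), PGK1 (0.203%, 0.141% and 0.185%) and GPI (0.184%, 0.123% and 0.162%) were low in GM19193, whereas GAPDH and PKM moved little, and the triose phosphate isomerase TPI1 was highest there (0.0995%, 0.115% and 0.106%). Cholesterol and fatty acid synthesis was also low in GM19193, with 0.653%, 0.428% and 0.569%. Of 32 genes 22 were called, and 18 of these were highest in GM18505. The fatty acid synthase FASN had 0.0800%, 0.0523% and 0.0653%, the squalene synthase FDFT1 0.0727%, 0.0466% and 0.0509%, and the desaturase FADS2 0.0671%, 0.0336% and 0.0518%. The sterol sensor INSIG1 ran otherwise and was highest in GM19204 (0.00963%, 0.00680% and 0.0185%).

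The respiratory chain comes from nuclear and from mitochondrial genes, and these differed in their steadiness. The 74 measured nuclear genes took 1.58%, 1.60% and 1.60% of the coding counts (CV 0.570%, the lowest of the 28 lists, but 2.66% and not the lowest without immunoglobulin and receptor segments in the denominator). The ATP synthase beta subunit ATP5F1B within the list ran from 0.126% in GM18505 and 0.136% in GM19204 to 0.198% in GM19193. The 13 proteins of the mitochondrial genome took 0.460%, 0.452% and 0.734%. All 13 were called and all 13 were highest in GM19204. MT-ND5, a subunit of complex I, held 0.183%, 0.153% and 0.262%, MT-CYB of complex III 0.0774%, 0.0881% and 0.144%, and MT-CO1 of complex IV 0.0421%, 0.0480% and 0.0707%. The mitochondrial ribosomal RNAs, which are no footprints of cytosolic ribosomes, took 4.99%, 5.47% and 5.81% of all counts in the same cultures, and their part in the shares of the mitochondrial proteins was not tested.

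HLA class II presentation took 3.07%, 1.66% and 2.33% and was called for all 14 measured genes, with 13 of them highest in GM18505. GM18505 was highest for every class II chain, and GM19204 stood above GM19193 for all of them but HLA-DQA1 (0.128%, 0.0455% and 0.0445%) and HLA-DQB1 (0.102%, 0.0317% and 0.0233%). HLA-DRA held 0.590%, 0.312% and 0.463%, HLA-DPA1 0.305%, 0.119% and 0.159%, and the beta chain HLA-DRB1 0.235%, 0.100% and 0.130%. The peptide editor HLA-DMA had 0.0449%, 0.0233% and 0.0354%, and CIITA, the transcriptional activator of the class II genes, 0.0145%, 0.00918% and 0.00937%. The exception was CTSS, a protease that trims the invariant chain, with 0.0144%, 0.0178% and 0.0219%. The classical HLA genes are polymorphic, reads were kept with at most 2 mismatches to the reference, and the part of this in the differences was not tested.

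HLA class I presentation was instead highest in GM19204, with 1.29%, 1.24% and 1.65%, and 8 of its 10 called genes were highest there. B2M held 0.526%, 0.547% and 0.655%, HLA-B 0.234%, 0.218% and 0.310%, HLA-C 0.152%, 0.110% and 0.260% and the peptide transporter TAP1 0.0240%, 0.0256% and 0.0336%. The peptide-loading protein TAPBP was highest in GM19193 (0.0423%, 0.0652% and 0.0559%). The proteasome, which makes the peptides, took 0.920%, 1.001% and 1.05%, and 14 of its 38 measured genes were called (36.8%, near the background), none of them highest in GM18505 and 12 highest in GM19204 (10 without immunoglobulin and receptor segments). The activator subunits PSME1 (0.0504%, 0.0698% and 0.0747%) and PSME2 (0.0475%, 0.0508% and 0.0638%) led this list.

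The immunoglobulin genes varied more than any other list. The constant regions and J chain together took 1.05%, 3.96% and 1.51% in GM18505, GM19193 and GM19204 (CV 72.0%), and all 8 measured genes were called. The other 7 genes of this list of 15, IGHG4, IGHA1, IGHA2, IGHE, IGLC1, IGLC3 and IGLC7, were not analysed here, so that the order of heavy chains within a culture and the level of lambda chains cover the measured genes only. IGHM had 603 counts in GM18505, 125368 in GM19193 and 1243 in GM19204, or 0.0110%, 2.73% and 0.0218% of the coding counts. IGHD, the delta heavy chain, followed it at 0.000456%, 0.0928% and 0.00166%. The Wilson 95% intervals of the IGHD shares, which cover counting error only, were 0.000309% to 0.000673%, 0.0900% to 0.0956% and 0.00136% to 0.00203% and did not overlap. Thus mu and delta heavy chains were high in GM19193 alone.

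Gamma heavy chains were high in the other cultures. IGHG1 held 0.0203%, 0.0143% and 0.864%, and IGHG3 held 0.0164%, 0.00242% and 0.372%, both highest in GM19204. IGHG2 held 0.103% in GM18505, 0.000458% in GM19193 and 0.0319% in GM19204 and was the largest of the 5 measured heavy chains in GM18505. Of the light chains, IGKC, the kappa constant region, took 0.847% in GM18505 and 1.03% in GM19193 but 0.00891% in GM19204. IGLC2, a lambda constant region, took 0.00109%, 0.00632% and 0.0439% and was highest in the culture where kappa was low. JCHAIN, which joins secreted IgM and IgA into polymers, took 0.0476%, 0.0866% and 0.169%. The gamma genes resemble each other closely, as do the lambda genes, and with uniquely mapped reads the split among them is uncertain. Variable and joining segments together took 0.0771%, 1.11% and 0.503%.

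**Figure D3:**
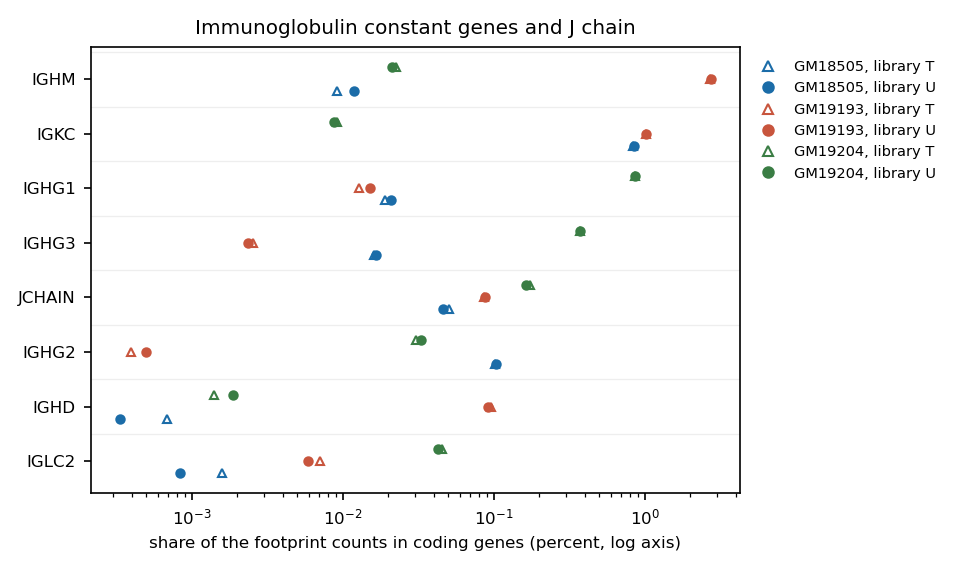
Share of the coding counts (percent, log axis) of 7 immunoglobulin constant genes and JCHAIN in each T (open triangle) and U (filled circle) library of the 3 control cultures. IGHM and IGHD are high in GM19193 alone, IGHG1 and IGHG3 in GM19204 alone, and IGKC is low in GM19204, at 0.00891% against 0.847% and 1.03%.

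ER folding and translocation, the route by which immunoglobulins leave the cytosol, took 1.27% in GM18505, 1.71% in GM19193 and 2.24% in GM19204. Of 44 genes 39 were called, and 37 of these were highest in GM19204. HSPA5, the main ER chaperone, held 0.0687%, 0.108% and 0.214%. HSP90B1 held 0.112%, 0.247% and 0.273%, the lectin CALR 0.145%, 0.221% and 0.252%, the disulfide isomerase P4HB 0.0588%, 0.0674% and 0.119%, and the translocon channel SEC61A1 0.0257%, 0.0297% and 0.0434%. The subunits of the signal recognition particle SRP9 (0.0105%, 0.0101% and 0.00980%) and SRP14 (0.0341%, 0.0319% and 0.0324%) were not called. GM19204 was also highest for JCHAIN and for the plasma cell markers, whose sum was mostly JCHAIN and is thus no separate observation. The immunoglobulin sum was instead highest in GM19193. The part of secretory cells in these shares was not tested.

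Genes of B cell identity and receptor signalling took 1.19%, 1.08% and 1.19%, so that the list was near level while its members crossed. IRF4, a transcription factor of activated B and plasma cells, was the largest by the mean of the cultures (0.0941%, 0.118% and 0.111%), whereas MS4A1, the CD20 antigen, at 0.111%, 0.0925% and 0.0843%, stood above it in GM18505 and CD79A (0.138%) in GM19204. The lineage factor PAX5 held 0.0104%, 0.0102% and 0.0105% and was not called, nor were the phosphatase PTPRC (0.0578%, 0.0602% and 0.0580%), the kinase LYN (0.0202%, 0.0229% and 0.0218%) and the factor EBF1 (0.00319%, 0.00401% and 0.00441%). At the other extreme, CD38 ran from 0.000365% in GM18505 to 0.0127% in GM19204, the complement receptor CR2 from 0.00560% to 0.0291%, and IRF8 from 0.0169% in GM19193 to 0.0423% in GM18505. In all, 28 of 35 measured genes were called.

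NF-kB pathway and costimulation genes, which Epstein-Barr virus is known to drive in LCLs, took 0.346%, 0.369% and 0.470%, and 14 of the 20 called genes of 28 were highest in GM19204. The subunit NFKB1 was not called (0.0263%, 0.0261% and 0.0252%) and NFKB2 was (0.0169%, 0.0264% and 0.0352%). CD48, an adhesion ligand, held 0.0543%, 0.0377% and 0.0640%, the inhibitor NFKBIA 0.0246%, 0.0416% and 0.0390%, and EBI3, a cytokine subunit, 0.0250%, 0.0243% and 0.0477%. Among cytokines and chemokines the chemokine CCL22 gave 30.9% of the list, with 0.0562% in GM18505, 0.0836% in GM19193 and 0.135% in GM19204, whereas MIF (0.0776%, 0.0444% and 0.0588%) was highest in GM18505 and lymphotoxin alpha, LTA (0.0288%, 0.0482% and 0.0332%), in GM19193.

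Several other lists had low spreads. hnRNP and SR proteins, which bind and splice pre-mRNA, took 1.91% ± 0.0624 (SD, n = 3), cytosolic chaperones and the chaperonin 1.53% ± 0.0193, mitosis genes 0.887% ± 0.0286, DNA replication genes 0.825% ± 0.0329, nuclear transport genes 0.807% ± 0.0356 and amino acid and nucleotide supply 0.596% ± 0.0112. Some of these spreads depended on the denominator. Without immunoglobulin and receptor segments the CV rose from 3.26% to 5.44% for hnRNP and SR proteins and from 3.98% to 5.74% for DNA replication. It rose from 4.42% to 6.19% for nuclear transport and from 1.26% to 3.29% for chaperones, and fell for mitosis and for amino acid and nucleotide supply. In chaperones, mitosis, DNA replication, hnRNP and SR proteins, tubulins and ubiquitin genes, libraries of different cultures overlapped. Single members still moved. The chaperonin subunit CCT2 held 0.0382%, 0.0760% and 0.0465% and the folate enzyme SHMT2 0.0399%, 0.0578% and 0.0405%, both highest in GM19193, as were the condensin subunit NCAPD2 (0.0403%, 0.0588% and 0.0420%) and the transport GTPase RAN (0.0936%, 0.122% and 0.0868%). Iron storage and redox genes took 0.620% ± 0.0312, with the transferrin receptor TFRC at 0.172%, 0.133% and 0.163% and GSTP1 at 0.0397% in GM18505 against 0.0870% and 0.0806%.

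Subunits of complexes that are built in fixed numbers can be compared by their per-length levels. The 8 CCT chaperonin subunits ran from 161 (TCP1) to 393 (CCT8), a 2.43-fold range, with a median of 327. The 6 MCM helicase subunits ran from 102 (MCM6) to 243 (MCM7), a 2.38-fold range, with a median of 153. The 12 measured eIF3 subunits covered a 5.35-fold range around a median of 183, and the 7 constitutive beta subunits of the 20S proteasome a 4.21-fold range around 474. The 6 measured alpha subunits covered an 18.2-fold range, with PSMA1 at 23.7 and PSMA6 at 37.95 against a median of 366. Of the constitutive beta subunits, PSMB5 (143), PSMB7 (213) and PSMB6 (280) were lowest. The immunoproteasome subunits PSMB8 (446), PSMB9 (525) and PSMB10 (222) were kept apart from this set. Where both kinds are made, constitutive beta subunits need not be present in equal numbers, and the part of this in their range was not tested. The length used was the union of all coding exons of a gene, which can be longer than a single reading frame. Only uniquely mapped reads were counted. The part of either in these ranges was not tested. These complexes were chosen after the values of the lists had been seen.

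Outside the immunoglobulin segments, the genes that differed most by the rule used here were small members of the lists or in none of them. VIM, the intermediate filament protein vimentin, had 1325 and 2143 counts in the T and U libraries of GM19193, 78 and 164 in GM18505, and 39 and 58 in GM19204. It was thus high in GM19193 by 4.77 ± 0.08 (SE) on the log2 scale over the mean of the others. The spectrin SPTBN5 was likewise high in GM19193 alone, with 183 and 313 counts against 4 and 6 in GM18505 and 5 and 10 in GM19204 (5.58 ± 0.23 on the log2 scale, adjusted p = 1.2e-129). SLC27A1, a fatty acid transporter, and the protease CAPN2 followed at 4.43 ± 0.27 and 3.95 ± 0.26, as did OR2M4, an olfactory receptor gene, at 3.81 ± 0.20. For OR2M4 the exons are much longer than the reading frame, and where in the gene its reads lie was not tested.

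GM18505 was high in ARHGAP25, a GTPase-activating protein of blood cells, with 219 and 460 counts against 7 and 8 in GM19193 and 8 and 12 in GM19204 (5.17 ± 0.20 on the log2 scale, adjusted p = 5.6e-146). It was also high in PLS3, a plastin that unlike LCP1 is known from tissues outside the blood, with 452 and 834 counts against 17 and 26 and against 22 and 22 (4.79 ± 0.13). The receptor phosphatase PTPRS (3.40 ± 0.20), the receptor NOTCH2 (3.22 ± 0.23) and SLFN5 (3.19 ± 0.19) completed the 5 highest. GM18505 was low in the protease TMPRSS3, with 5 and 5 counts (-5.20 ± 0.28 on the log2 scale), in the sorting receptor SORT1 (-4.38 ± 0.31), in CD38 (-4.35 ± 0.24), in the glutathione transferase MGST1 (-3.72 ± 0.31) and in SPTBN5.

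GM19204 was high in MGST1, with 316 and 325 counts against 2 and 13 in GM18505 and 17 and 38 in GM19193 (4.29 ± 0.18 on the log2 scale, adjusted p = 4.0e-116). The amyloid precursor protein gene APP, with 698 and 733 counts against 18 and 30 in GM18505 and 125 and 180 in GM19193, was high by 3.36 ± 0.11, and FRMD6 (3.03 ± 0.27), CHPF (2.85 ± 0.22) and FEZ1 (2.72 ± 0.17) followed. The meiotic cohesin subunit REC8 had 25 and 19 counts in GM19204 against 295 and 569 in GM18505 and 337 and 523 in GM19193 (-4.47 ± 0.16), and NRG3 was also low there (-3.63 ± 0.17). GM19193 was low in the kinase FYN, with 4 and 8 counts against 231 and 402 in GM18505 and 66 and 99 in GM19204 (-4.46 ± 0.28), and in CREB5 (-4.39 ± 0.40) and the histone H2BC26 (-4.10 ± 0.29). For 25 of the 30 pairs of a culture and a gene chosen as high or low, both libraries of that culture lay outside the range of all others. In the other 5 pairs, all of them low pairs of SPTBN5, ARHGAP25 or PLS3, the gene was as low in another culture. The pairs were chosen for large differences in these same libraries, so that 25 of 30 is no separate support for the differences.

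**Figure D4:**
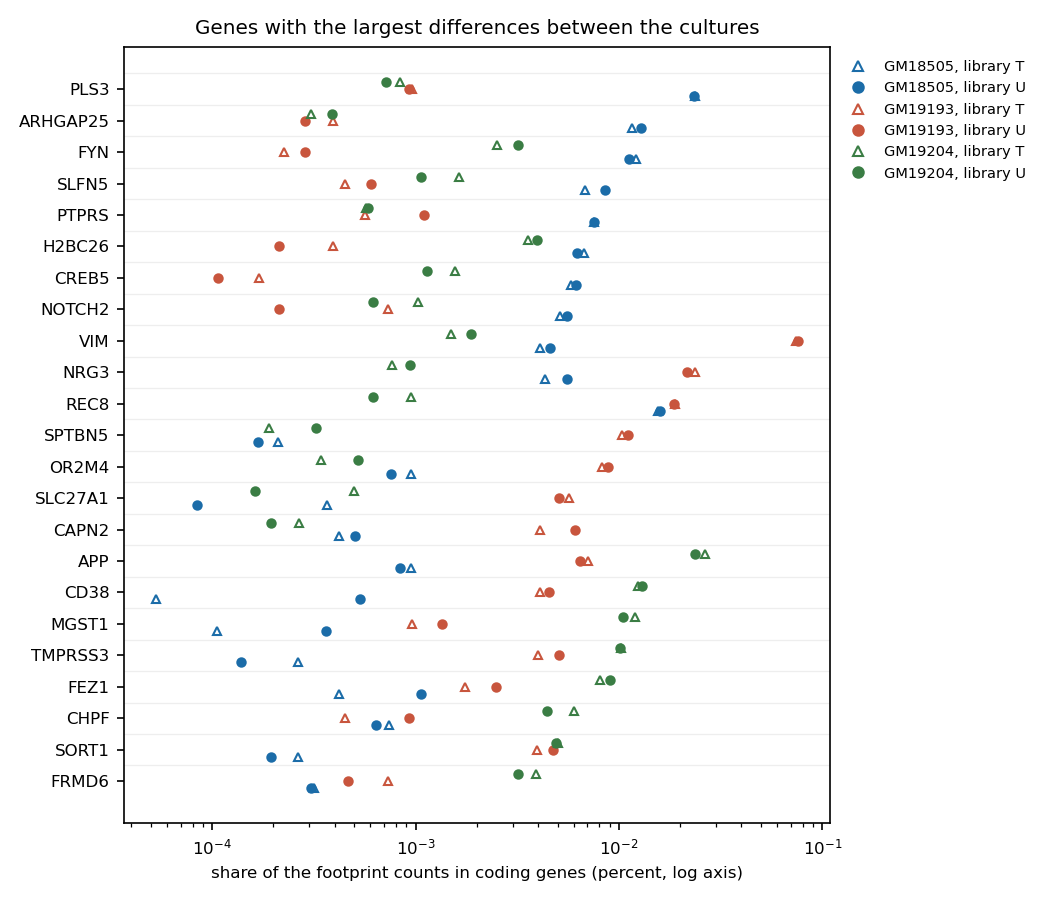
Share of the coding counts (percent, log axis) of protein-coding genes with large differences between the control cultures, in each T (open triangle) and U (filled circle) library; immunoglobulin genes are not shown. VIM reaches 0.0756% in GM19193 against 0.00441% in GM18505 and 0.00170% in GM19204, and PLS3 reaches 0.0234% in GM18505 against 0.000937% and 0.000770%.

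At the steady end, the 10 protein-coding genes with the lowest CV among those with a mean count of at least 1000 had CVs of 0.411% to 1.05% with immunoglobulin segments in the denominator, and none was called. MMADHC, which handles vitamin B12, held 0.0193%, 0.0192% and 0.0191%, the histone H2BC9 0.0812%, 0.0811% and 0.0818%, PRRC2C 0.0683%, 0.0676% and 0.0684%, and the ubiquitin-conjugating enzyme UBE2D3 0.0209%, 0.0208% and 0.0211%. The others were BZW1, HNRNPDL, SDHB, SMC4, RAB7A and VPS13C. They were picked from many genes for low spread, so that their CVs are lower than repeat cultures would give. Steadiness followed depth only in part. The median CV over cultures was 14.5% for the 100 most occupied coding genes, 11.1% for ranks 101 to 1000, 12.3% for ranks 1001 to 5000 and 23.9% beyond, whereas the median CV between T and U rose from 2.25% through 4.04% and 8.53% to 20.9%. These values came closest in the last class, at 20.9% between T and U and 23.9% over cultures. The CV between T and U is that of single libraries, whereas the CV over cultures uses their summed counts. Summed counts have a smaller library spread, so that the closeness is overstated.

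Weighted by their footprints, the proteins under translation differed in make-up from the same proteins counted once each. Over 10816 nuclear coding sequences, residues were counted with each protein weighted by its per-length level and again with each protein counted once. Lysine made up 7.29%, 7.31% and 7.19% of the residues under translation in GM18505, GM19193 and GM19204, against 5.998% unweighted. Alanine was also higher (7.64% ± 0.0513 against 7.07%), as were glycine (7.01% ± 0.0108 against 6.51%) and isoleucine (4.71% ± 0.0289 against 4.26%). Serine was lower at 7.11% ± 0.0118 against 8.30%, and so were proline (5.56% ± 0.0109 against 6.30%), leucine (9.10% ± 0.0332 against 9.83%) and cysteine (1.70% ± 0.0109 against 2.11%). For each of these residues all 3 cultures lay on the same side of the unweighted value, and the cultures differed among themselves by far less than from it. The median coding length, weighted by share, was 1315, 1406 and 1342 bases in GM18505, GM19193 and GM19204 and, weighted by per-length level, 690, 673 and 729 bases, against 1574 bases unweighted. G or C stood at the third codon position in 60.1%, 59.3% and 59.5% of the footprint-weighted codons, against 56.7% unweighted.

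**Figure D5:**
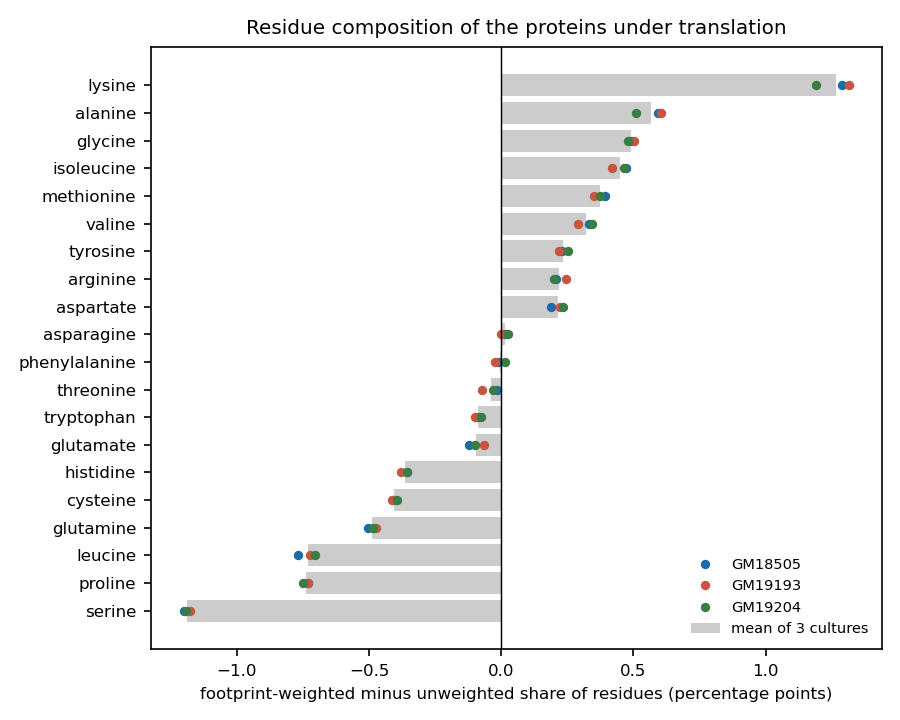
Difference, in percentage points, between the residue share weighted by footprint level and the unweighted share over 10816 proteins, as the mean of the 3 control cultures (bars) and for each culture (points). Lysine is higher by 1.27 points and serine lower, at -1.19 points, and the cultures lie close together.

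By position, chromosome 6 took the largest part of the coding counts, 10.5%, 9.50% and 9.97%, with 5.51% of the coding genes. Its 66 histone and HLA presentation genes gave 6.06% ± 0.568 of all coding counts. Chromosome 14, which carries the heavy chain locus, ran from 2.65% in GM18505 to 5.90% in GM19193 and 4.08% in GM19204. Outside the coding genes, the most counted gene by the mean of the cultures was the mitochondrial ribosomal RNA MT-RNR2, with 3.42%, 3.72% and 3.90% of all counts. It was followed by ENSG00000286171, a long noncoding RNA gene at chr7:148941483-148941638 (GRCh38) in the region of the Y RNA genes. This gene had 4.83%, 1.83% and 3.32% and stood above MT-RNR2 in GM18505. The part of Y RNA reads in its counts was not tested. Next came MT-RNR1 (1.57%, 1.75% and 1.90%), the mitochondrial valine tRNA MT-TV (0.217%, 0.252% and 0.220%) and the miRNA gene ENSG00000275110 (0.135%, 0.123% and 0.0718%). Among these, ENSG00000286171 alone differed by over 2-fold between cultures.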

How the data were processed

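Per the labels and the study's methods, ribosome-protected fragments were isolated by RNase I digestion and size exclusion and sequenced after rRNA subtraction, with a further CRISPR/Cas9 depletion in the T libraries. The authors removed rRNA, tRNA and snoRNA reads, mapped the rest to GRCh38 with TopHat2 (at most 2 mismatches, GENCODE 37, uniquely mapped reads only) and counted reads per gene with featureCounts of Subread. Their versions are not given in the sources read. The deposited values are raw whole-number counts, kept by the authors for genes with at least 1 read in each of the 12 libraries. A gene without a read in even 1 library, control or stressed, was thus not analysed here. Genes with near-identical copies are undercounted. Symbols, classes and coding lengths (union of coding exons) came from GENCODE 44 on GRCh38, and 12343 of 12357 identifiers matched.

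Only the 6 control libraries were used. T and U were summed per culture for shares and per-length levels, and no test was made of a share over 3 cultures. Genes were tested on the 6 libraries with edgeR 4.0.16 in R 4.3.3 (TMM, glmQLFit and glmQLFTest, terms for library preparation and culture, Benjamini-Hochberg adjustment at 0.05), and the code was tested on simulated data. T and U were the library preparation batches, each shared by all cultures, and the study's methods fit this batch as a term. Log2 differences set a culture against the mean of the others. Named genes, protein-coding apart from lists and non-coding genes, were CD79A, CD74 and ACTB, the 20 largest shares, the 10 highest levels (mean count of at least 100), the 3 largest of each list, the 5 highest and 5 lowest called genes of each culture (count of at least 200), the 10 steadiest (mean count of at least 1000) and the 5 largest non-coding genes. Other named genes were chosen after their values were seen. Variable segments and Y-linked genes were left out by rule, and immunoglobulin constant genes, a class of their own in the annotation, entered through their list. The lists and rules were chosen with earlier results of these data known. DESeq2 1.42.0 and limma 3.58.1 (log2 counts, pseudocount 0.25) were alternatives. Python 3.11.15, pandas 2.3.3, NumPy 2.4.6 and matplotlib 3.10.9 were used. Depth was 1979496 to 4112703 counts per library, and a median coding gene had 169 counts per culture. Spike-in counts were not used.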

Additional observations from a re-analysis of the deposited data

How the results depend on the processing

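Of 4727 genes called between the control cultures, the DESeq2 likelihood ratio test called 2130, all of them shared, and limma on log2 counts 898, of which 838 were shared. DESeq2 size factors gave 4739, total counts 4725, mean counts of at least 10 or 50 gave 4516 and 3470, and leaving out 1 library 3760 to 4111, with the lone library of a culture taken to vary like the others. Without the library preparation as replicate block 4690 were called, and this changed no call among the 30 differences of named genes chosen as high or low in a culture. In limma 3 of these 30 were no longer called. With a mean count of at least 50, only 27 of the 30 passed the filter, and all 27 kept their call. No direction reversed in any setting in which a difference was tested. Against all counts the lists together fell to 37.4%, ribosomal proteins to 3.99%, histones to 3.96% and glycolysis to 2.36%, and against uniquely mapped reads to 36.8%, 3.94%, 3.90% and 2.33%, since the denominator is larger. Without immunoglobulin and receptor segments, an alternative chosen after seeing the data, the lists together took 41.3%, and the order of the cultures changed in 8 of 28 lists. With all exonic bases as length, the per-length share of the lists was 56.7%, of the actin cytoskeleton 4.62%, of ribosomal proteins 4.67% and of histones 21.3%, so that levels of histones against other lists depend on the length used. Leaving out GM19193 took the mean share of the immunoglobulin constant regions and J chain from 2.17% to 1.28%, and leaving out 1 culture moved the mean of no other list by over 1.5 times.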
